A study of Homo sapiens with 24 samples.

Results

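The control cells of 2 human cancer lines were compared: A375, a melanoma line, and SK-Hep1, a line labelled as liver. Both lines had been transfected with a control small interfering RNA (siControl) and were collected 48 hours later, in triplicate wells. The comparison took the 3 siControl libraries of A375 batch 2 and the 3 siControl libraries of SK-Hep1, 6 of the 24 libraries in the series, and covered the 15203 of 60504 rows of the deposited table with a mean of at least 1 TPM (a length-corrected share of all transcripts in a library) over these 6. The rest of the series holds the same lines with siRNA against GCDH (siGCDH), an earlier A375 batch made with another kit, and libraries labelled SKBR3, a breast cancer line. The 6 siGCDH libraries of A375 batch 2 and SK-Hep1 were used as another set of wells of the same lines. GCDH, the gene that the series is about, encodes glutaryl-CoA dehydrogenase, an enzyme of lysine and tryptophan breakdown in mitochondria.

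Melanocytes arise from the neural crest, and the transcription factors SOX10 and MITF hold their identity and switch on the genes of pigment synthesis. Melanoma cells can lose the pigment programme and take on a state that resembles neural crest or mesenchymal cells. Hepatocytes are defined by secreted plasma proteins such as albumin and by the factor HNF4A. SK-Hep1 was established from a patient with liver cancer, and its origin from hepatocytes has long been disputed because it resembles endothelial or mesenchymal cells. Cancer-testis genes, many of them in families on the X chromosome, are expressed in germ cells, are kept off by promoter DNA methylation in other tissues, and are often switched on in melanoma.

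Each line stands for itself only, and its 3 libraries are wells of 1 line, so the p-values measure the spread between wells, which may be technical. The A375 libraries are labelled as a batch and the SK-Hep1 libraries carry no batch label, so that batch and line cannot be told apart. Both sets were made from poly(A) RNA with the same directional full-length kit. Between 14917 and 14952 genes reached 1 TPM in an A375 library, against 14152 to 14195 in an SK-Hep1 library. The 10 most abundant genes took 6.25 to 6.3% of TPM in A375 and 7.79 to 8.12% in SK-Hep1. Pearson correlations of log2(TPM + 1) across genes were 0.979 to 0.984 within a line and 0.777 to 0.780 between the lines. Errors are SD over the 3 libraries of a line, or SE where named. TPM values keep no read totals, so the depth is unknown, and fewer cells of a type and less RNA per cell cannot be told apart in bulk samples. GCDH itself (ENSG00000105607, hg38 chr19:12891026-12914207, plus strand) stood at 20.6, 22.7 and 19.3 TPM in A375, against 9.79, 9.46 and 8.97 TPM in SK-Hep1, with no overlap (difference 1.07 on the log2(TPM + 1) scale, SE 0.08, limma adjusted p = 2.11e-05). With the libraries brought to the same median, called median scaling below, the difference was 0.89, below the 2-fold condition used here, and in the siGCDH wells, where GCDH was the target, it was 0.34.

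Differences are A375 minus SK-Hep1 on the log2(TPM + 1) scale, which understates the difference of low genes. A gene was called when its limma adjusted p (Benjamini-Hochberg, two-sided) was under 0.05 and the difference was at least 1, that is 2-fold. Of the 15203 genes, 3007 were called higher in A375 (19.8%) and 2089 lower (13.7%). By adjusted p alone 6954 (45.7%) were higher and 4448 (29.3%) lower, so small differences between these lines were the rule. Counts of called members of a list are to be read beside these shares over all genes. A difference of at least 3 was seen for 433 genes higher in A375 and 353 lower, and one of at least 7 for 17 higher and 14 lower. The median over all tested genes was 0.21, and it was 0.04 after median scaling and 0.05 after quantile normalization. Accordingly 59% of the calls were higher in A375, but 48.8% after median scaling and 48.7% after quantile normalization. Genes that passed the filter only through 1 line had to differ: 1493 passed only through A375, of which 1103 were called higher, and 963 only through SK-Hep1, of which 708 were called lower. Among the 12747 genes at 1 TPM or more in both lines, 25.8% were called. At the edge of the filter, 291 genes had a mean from 1 to under 1.1 TPM (medians 1.33 TPM in A375 and 0.757 TPM in SK-Hep1) and 297 had 0.9 to under 1 TPM (medians 1.08 TPM in A375 and 0.81 TPM in SK-Hep1).

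**Figure D1:**
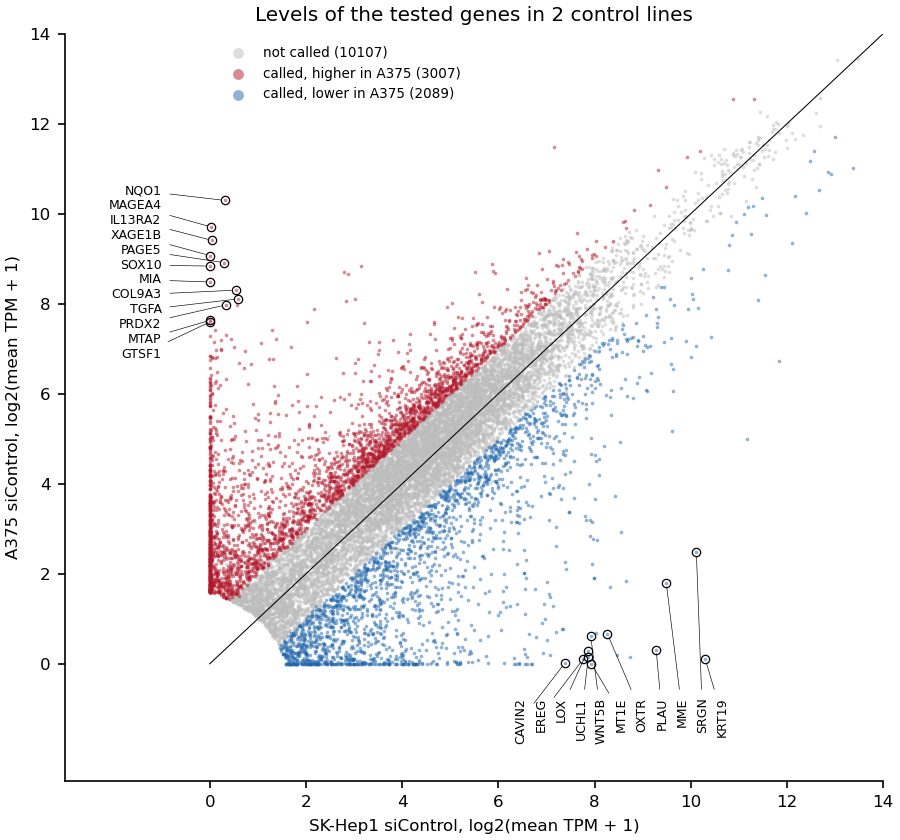
Mean level of each of the 15203 tested genes in A375 siControl (vertical axis) and SK-Hep1 siControl (horizontal axis), both as log2(TPM + 1), coloured by call; the line marks equal levels and circles mark genes named in the text for the largest called differences in each direction. NQO1 lies at the top left and KRT19 at the lower right, with about no transcript in the other line.

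With non-coding and pseudogene symbols set aside, the largest difference towards A375 was that of NQO1, an NAD(P)H quinone dehydrogenase and target of the factor NRF2, with 1286, 1236 and 1246 TPM in A375, against 0.6, 0.15 and 0 TPM in SK-Hep1 (difference 10.002, SE 0.16, adjusted p = 1.88e-08). The cancer-testis antigens MAGEA4, XAGE1B and PAGE5 were among the first 12 too. MAGEA4 had 840.4, 862 and 800.4 TPM in A375, against 0.07, 0 and 0 TPM in SK-Hep1. IL13RA2, the interleukin 13 receptor subunit known as a decoy, had 696, 676 and 665 TPM in A375, against 0.09, 0 and 0 TPM in SK-Hep1 (difference 9.37, adjusted p = 9.43e-10). All 3 genes were thus abundant in every A375 well and absent or nearly so in every SK-Hep1 well. SOX10 had 439.97, 465 and 466 TPM in A375, against 0 TPM in every SK-Hep1 library (adjusted p = 9.43e-10). MIA, a secreted protein of melanoma cells, was listed at 0 in SK-Hep1 and had 374, 357 and 340 TPM in A375. PRDX2, a peroxide-reducing peroxiredoxin found in most cells, had 259, 252 and 241 TPM in A375, against 0, 0.4 and 0.38 TPM in SK-Hep1 (difference 7.66, adjusted p = 2.9e-08). The other members of this group were COL9A3, a cartilage collagen chain, with 315 TPM in A375 against 0.45 TPM in SK-Hep1 (mean), TGFA, a ligand of the EGF receptor, with 275 TPM in A375 against 0.507 TPM in SK-Hep1, GTSF1, a germline factor of transposon silencing, with 192 TPM in A375 against 0 TPM in SK-Hep1, and MTAP, which is described with its chromosome region.

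The largest difference towards SK-Hep1 was that of KRT19, a keratin of simple and bile duct epithelium, with 0, 0 and 0.22 TPM in A375, against 1276, 1265 and 1245 TPM in SK-Hep1 (difference -10.21, SE 0.09, adjusted p = 1.91e-09). PLAU, the urokinase plasminogen activator, had 0.37, 0.18 and 0.19 TPM in A375, against 634, 619.7 and 609 TPM in SK-Hep1 (difference -8.97, adjusted p = 1.91e-09). SRGN, the proteoglycan serglycin, had 4.11, 4.75 and 4.87 TPM in A375, against 1108, 1063 and 1158 TPM in SK-Hep1, a difference of -7.64. No overlap between the groups was a condition for choosing these 3 genes. MME, the surface peptidase neprilysin, followed with 2.48 TPM in A375 against 719 TPM in SK-Hep1 (mean) and OXTR, the oxytocin receptor, with 0.58 TPM in A375 against 307 TPM in SK-Hep1. UCHL1, a ubiquitin hydrolase known from neurons, had 0.113 TPM in A375 against 233 TPM in SK-Hep1 and EREG, epiregulin, an EGF receptor ligand, 0.08 TPM in A375 against 217 TPM in SK-Hep1. The metallothionein MT1E was listed at 0 in every A375 library and had 238, 237 and 257 TPM in SK-Hep1 (adjusted p = 1.91e-09). Further members of this group were LOX, CAVIN2, a caveolar coat protein (0.0133 TPM in A375 against 166 TPM in SK-Hep1), and the Wnt ligand WNT5B (0.527 TPM in A375 against 241 TPM in SK-Hep1).

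The siGCDH wells, which share no library with the siControl wells, were set beside these calls. There 3045 of the 15203 genes (20%) were called higher in A375 and 2792 (18.4%) lower. Of the 3007 genes called higher with siControl, 2169 (72.1%) were called higher with siGCDH as well, 2921 (97.1%) had the same sign and 5 were called lower. Of the 2089 called lower, 1708 (81.8%) were called lower again, 2031 (97.2%) had the same sign and 6 were called higher. The Pearson correlation of the 2 sets of differences was 0.889 across genes, which are not independent replicates. The siRNA acts on these wells too, so they repeat the line and not the condition. NQO1 had 1044 TPM in A375 against 0.0167 TPM in SK-Hep1 there (mean, difference 10.01), KRT19 had 0.313 TPM in A375 against 1275 TPM in SK-Hep1 (-9.96) and SOX10 had 530.5 TPM in A375 against 0.0167 TPM in SK-Hep1. Of the 24 genes with the largest differences (12 each way, non-coding and pseudogene symbols set aside), all were called in the same direction in the siGCDH wells.

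A375 held the melanocyte lineage factors SOX10, MITF and PAX3 but not the transcripts of pigment synthesis. In the melanocyte list 14 of 28 listed genes passed the filter, 7 of them only through A375 and 1 only through SK-Hep1, and 10 were called higher and 2 lower (median difference 3.40), beside a median of 0.21 over all tested genes. MITF, the master factor of pigment cells, had 12.2, 11.4 and 11.2 TPM in A375, against 0.85, 1.26 and 1.52 TPM in SK-Hep1 (difference 2.52, adjusted p = 3.79e-06). The values of A375 lay above those of SK-Hep1 in every library, though at a level far below SOX10. The neural and melanocytic calcium-binding protein S100B had 111, 117 and 116 TPM in A375, against 0 TPM in every SK-Hep1 library (adjusted p = 4.57e-09). EDNRB, the endothelin receptor of melanoblasts, had 17.6, 18.3 and 17.6 TPM in A375, against 0 TPM in every SK-Hep1 library, and PAX3, a neural crest factor upstream of MITF, had 8.73, 5.59 and 8.92 TPM in A375, against 0 TPM in every SK-Hep1 library. ERBB3, a neuregulin receptor that SOX10 drives, differed less, with 154 ± 3.34 TPM in A375 against 36.1 ± 1.08 TPM in SK-Hep1 (SD, n = 3 each, difference 2.07). CDH19, a cadherin of Schwann cell precursors, had 38.2 ± 1.55 TPM in A375 against 0.343 ± 0.0802 TPM in SK-Hep1. The pigment genes were below the filter: PMEL, the melanosome scaffold, had 1.58, 0.51 and 0.79 TPM in A375, against 1.1, 0.63 and 0.95 TPM in SK-Hep1, and MLANA had 0.18, 0.1 and 0.73 TPM in A375, against 0.05, 0 and 0 TPM in SK-Hep1. TYR, the first enzyme of melanin synthesis, was listed at 0 in all 6 libraries, and DCT and TYRP1 did not pass 1 TPM in either line. TFAP2A, a factor of neural crest and skin, had 10.01 TPM in A375 against 86.8 TPM in SK-Hep1 (mean, difference -2.99) and the receptor KIT had 0.00667 TPM in A375 against 4.37 TPM in SK-Hep1 (-2.41), both called lower in A375.

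The neural crest and invasive melanoma list was divided between the lines. Here 26 of 27 listed genes passed the filter, 4 of them only through A375 and 3 only through SK-Hep1, and 6 were called higher and 9 lower (median difference -0.45). The neurotrophin receptor NGFR had 16.6, 16.4 and 18.9 TPM in A375, against 0.14, 0.04 and 0.06 TPM in SK-Hep1 (difference 4.08, adjusted p = 1.61e-07), and the intermediate filament gene NES had 30.2, 30.6 and 30.9 TPM in A375, against 0.27, 0.25 and 0.54 TPM in SK-Hep1 (4.55). SOX2 (6.03 TPM in A375 against 0.0167 TPM in SK-Hep1) and FOXD3 (15.7 TPM in A375 against 3.03 TPM in SK-Hep1), factors of neural crest stem cells, were called higher as well, but FOXD3 differed by 0.04 in the siGCDH wells and was not called there. SOX9, which is known to oppose SOX10 in melanoma cells, had 0.65, 0.48 and 0.72 TPM in A375, against 31.2, 34.6 and 36.5 TPM in SK-Hep1 (difference -4.44, adjusted p = 8.38e-08), the reverse of SOX10. The repressors of the SNAI family also parted: SNAI2 had 1.32 TPM in A375 against 34 TPM in SK-Hep1 (mean) and SNAI1 14.1 TPM in A375 against 0.627 TPM in SK-Hep1. JUN, part of the AP-1 factor, had 8.36 TPM in A375 against 91.4 TPM in SK-Hep1, CCN1, a target of YAP and TEAD factors, 65.7 TPM in A375 against 544 TPM in SK-Hep1, and the collagen cross-linking enzyme LOXL2 60.6 TPM in A375 against 408 TPM in SK-Hep1, each called lower. AXL, the receptor most used to mark the invasive state, had 118, 117 and 116 TPM in A375, against 195, 189 and 192 TPM in SK-Hep1. Its difference of -0.71 passed by limma adjusted p (1.61e-06) but not by size. In the siGCDH wells the order of AXL turned, with 264 TPM in A375 against 225 TPM in SK-Hep1 (mean, 0.23, not called). ZEB1 was not called (20.2 TPM in A375 against 16.3 TPM in SK-Hep1), nor were TWIST1 (13.5 TPM in A375 against 9.19 TPM in SK-Hep1) and FOSL1 (255 TPM in A375 against 349 TPM in SK-Hep1).

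The liver label of SK-Hep1 was set against 30 hepatocyte genes, and the defining ones were at or near 0. Of the 30, 26 were below the filter, 13 of them at 0 in all 6 libraries, and 1 of the 4 that passed was called. ALB (albumin) and APOA1 were listed at 0 in every library, and HNF4A had 0, 0 and 0.11 TPM in A375, against 0 TPM in every SK-Hep1 library. SERPINA1, alpha-1 antitrypsin, had 5.01, 4.61 and 5.54 TPM in A375, against 9.51, 8.4 and 10.9 TPM in SK-Hep1, a difference of -0.80 that did not reach 2-fold (-2.42 and called with siGCDH). CPS1, the first enzyme of the urea cycle, had 7.07 ± 0.964 TPM in A375 against 3.76 ± 0.454 TPM in SK-Hep1, the higher value being in A375. FOXA1, a pioneer factor of liver and other epithelia, was the called member, with 1.13 ± 0.196 TPM in A375 against 3.87 ± 0.911 TPM in SK-Hep1 (difference -1.18, or -0.99 and not called with siGCDH). Of the endothelial genes, the defining markers PECAM1, CDH5 and VWF did not exceed 0.27 TPM in any of the 6 libraries, whereas ENG, a co-receptor of TGF-beta that other cells also express, had 57, 49.8 and 47.2 TPM in A375, against 42, 41.6 and 40.7 TPM in SK-Hep1. ENG was not called with siControl (0.30) and was called higher with siGCDH (1.61). FLI1, a factor of endothelial and blood cells, had 6.83 ± 0.791 TPM in A375 against 6.88 ± 0.91 TPM in SK-Hep1 and was not called. The 30 hepatocyte genes summed to 18.3 to 20.6 TPM in A375 and 22.9 to 24.8 TPM in SK-Hep1, and the 28 endothelial genes to 93.5 to 106 TPM in A375 and 86.6 to 98.3 TPM in SK-Hep1. Of the 28, 9 passed the filter, 3 were called higher in A375 and 3 lower (median -0.01). The vascular growth factor receptor FLT1 had 12.1, 12.6 and 12.7 TPM in A375, against 0 TPM in every SK-Hep1 library and KDR 2.4 TPM in A375 against 0 TPM in SK-Hep1 (mean), both on the A375 side. NOS3, the endothelial nitric oxide synthase, had 0, 0.03 and 0.24 TPM in A375, against 2.34, 3.05 and 3.25 TPM in SK-Hep1 and EGFL7 9.18 TPM in A375 against 28.6 TPM in SK-Hep1, both on the SK-Hep1 side. Macrophage and leukocyte genes gave 3 of 15 past the filter, with 1 called in each direction, and PTPRC (CD45) stood at 0 TPM in A375 against 0.27 TPM in SK-Hep1. CD68 was not called, with 32.1 TPM in A375 against 61.5 TPM in SK-Hep1 (-0.92, or -1.09 and called after median scaling). With siGCDH it was called lower, with 43.2 TPM in A375 against 362 TPM in SK-Hep1 (-3.04).

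**Figure D2:**
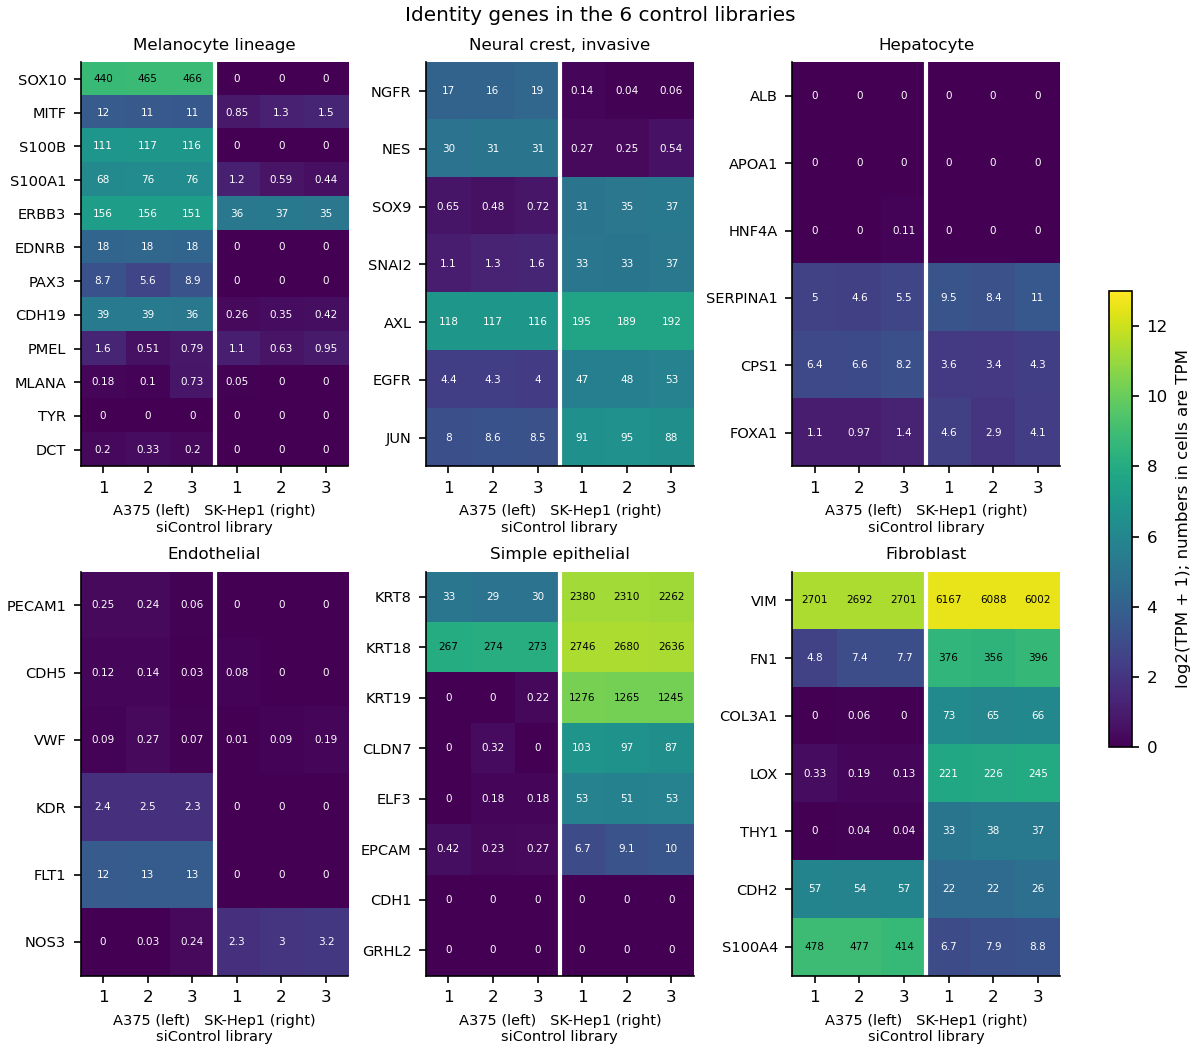
TPM of identity genes in each of the 6 siControl libraries, with the 3 A375 libraries left and the 3 SK-Hep1 libraries right in each panel; the colour is log2(TPM + 1) and the numbers are TPM. SOX10, S100B and EDNRB were at 0 in SK-Hep1, ALB and APOA1 were at 0 in both lines, and KRT8, KRT18 and KRT19 were at 1245 TPM or more in every SK-Hep1 library.

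SK-Hep1 carried keratins of simple epithelia together with genes of fibroblasts. In the simple epithelial and bile duct list 18 of 30 listed genes passed the filter, 1 of them only through A375 and 6 only through SK-Hep1, and 1 was called higher and 16 lower (median difference -3.02). KRT8 and KRT18 encode the keratin pair of simple epithelia. KRT8 had 33.1, 29.4 and 29.7 TPM in A375, against 2379.9, 2309.9 and 2262 TPM in SK-Hep1 (difference -6.19). KRT18 had 267, 274 and 273 TPM in A375, against 2746, 2680.2 and 2636 TPM in SK-Hep1 (-3.30). KRT18 was thus well expressed in A375 too, while KRT8 was there at little over 1% of its SK-Hep1 level. The tight junction gene CLDN7 had 0, 0.32 and 0 TPM in A375, against 103, 97.4 and 87.3 TPM in SK-Hep1 and the epithelial factor ELF3 0, 0.18 and 0.18 TPM in A375, against 53, 51.2 and 53.4 TPM in SK-Hep1. ITGB4, the integrin of hemidesmosomes, had 8.16 ± 1.4 TPM in A375 against 227 ± 1.85 TPM in SK-Hep1 (difference -4.65) and EPCAM 0.307 ± 0.1 TPM in A375 against 8.72 ± 1.84 TPM in SK-Hep1 (-2.88). Genes of the classic epithelial junction and its regulators were not part of this: CDH1 (E-cadherin) and GRHL2 were listed at 0 in all 6 libraries, and ESRP1 had 0.263 TPM in A375 against 0.573 TPM in SK-Hep1. CLDN4 was the 1 member called higher in A375, with 3.66 TPM in A375 against 0.923 TPM in SK-Hep1.

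In the fibroblast and mesenchymal list 21 of 26 listed genes passed the filter, 0 of them only through A375 and 5 only through SK-Hep1, and 2 were called higher and 14 lower (median difference -1.35). Fibronectin, FN1, had 4.83, 7.43 and 7.68 TPM in A375, against 376, 356 and 396 TPM in SK-Hep1 (difference -5.64, adjusted p = 1.41e-07). COL3A1, a fibrillar collagen chain, had 0, 0.06 and 0 TPM in A375, against 73.5, 64.8 and 66.2 TPM in SK-Hep1 (-6.08), the collagen cross-linker LOX 0.33, 0.19 and 0.13 TPM in A375, against 221, 226 and 245 TPM in SK-Hep1 and THY1 0.0267 TPM in A375 against 35.9 TPM in SK-Hep1 (mean). The groups did not overlap for any of these genes, which were named as members with large called differences, so this restates the choice. VIM, the mesenchymal intermediate filament, was among the most abundant transcripts of both lines at 2701, 2692 and 2701 TPM in A375, against 6167, 6088 and 6002 TPM in SK-Hep1. Its difference of -1.17 became -0.84, below 2-fold, after quantile normalization. SPARC, a matrix glycoprotein, differed by -0.29, with 1413 TPM in A375 against 1723 TPM in SK-Hep1. With siGCDH its difference was 0.50, and it was called in neither set. Members called higher in A375 were CDH2, N-cadherin, with 57.3, 54.4 and 56.8 TPM in A375, against 22.4, 22 and 26 TPM in SK-Hep1 (1.23), and the calcium-binding protein S100A4. S100A4 had 478, 477 and 414 TPM in A375, against 6.73, 7.87 and 8.77 TPM in SK-Hep1 (5.70).

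Of the cancer-testis genes in the table, 25 reached a mean of 5 TPM in A375 and 2 in SK-Hep1, and 18 were listed at 0 in every SK-Hep1 library. Of 36 listed genes 35 were in the table; 28 passed the filter, 24 of them only through A375, and 25 were called higher and 0 lower by limma at adjusted p under 0.05 and 2-fold (median difference 6.09). Since most passed only through A375, their count restates the filter. The 7 genes below the filter did not exceed 1.51 TPM in a library. Outside MAGEA4, XAGE1B and PAGE5, the genes MAGEA3, MAGEA6, PAGE2, MAGEC2, MAGEA12, CSAG1, CTAG1A and CTAG1B were each above 100 TPM in A375 as a mean and under 0.4 TPM in SK-Hep1. MAGEA6 had 129, 119.5 and 126 TPM in A375, against 0.09, 0 and 0.2 TPM in SK-Hep1 (difference 6.84, adjusted p = 8.38e-09) and PAGE2 had 144, 147 and 148 TPM in A375, against 0.52, 0 and 0 TPM in SK-Hep1. CTAG1A, 1 of the copies that encode the antigen NY-ESO-1, had 109.5 TPM in A375 against 0.0267 TPM in SK-Hep1, and its copy CTAG1B had 112 TPM in A375 against 0.0267 TPM in SK-Hep1. PRAME, an antigen of melanoma and many other tumours, was abundant in both lines, with 99.7 TPM in A375 against 84.9 TPM in SK-Hep1 and no call, and MAGEA1 was low in both, with 1.61 TPM in A375 against 1.24 TPM in SK-Hep1. GAGE12J had 0 TPM in every A375 library, against 68.5, 0 and 0 TPM in SK-Hep1, so that 1 library alone held it, and was not called. Near-identical copies share reads in these families and RSEM divides them, so the split between MAGEA3 and MAGEA6, between CTAG1A and CTAG1B, or among the GAGE and XAGE1 copies is uncertain.

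The 250 bases before the annotated start of MAGEA3 and MAGEA6 show how alike such copies are, since all 250 bases are identical (RefSeq, GRCh38.p14; chrX:152698544-152698793, plus strand for MAGEA3 and chrX:152769690-152769939, minus strand for MAGEA6). The sequence is given with CpG dinucleotides, the sites of DNA methylation, in capitals.
MAGEA3 and MAGEA6: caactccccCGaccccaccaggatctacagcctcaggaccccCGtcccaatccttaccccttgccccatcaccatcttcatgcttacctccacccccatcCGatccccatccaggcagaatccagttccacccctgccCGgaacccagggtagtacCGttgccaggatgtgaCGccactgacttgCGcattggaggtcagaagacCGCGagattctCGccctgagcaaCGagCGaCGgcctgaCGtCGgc
This window holds 15 CpG. Over the 10853 tested genes with such a window the median was 21 CpG (20 for genes called higher in A375 and 20 for those called lower), and over 24 cancer-testis genes past the filter it was 9. No methylation was measured in the files used here.

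HOX genes, which hold the position of a cell along the body axis, differed in both directions in the HOXA and HOXB clusters. In this list 29 of 39 listed genes passed the filter, 5 of them only through A375 and 3 only through SK-Hep1, and 13 were called higher and 5 lower (median difference 0.89). The 13 genes called higher lay in all 4 clusters, and the 5 called lower were HOXA7, HOXB5, HOXB6, HOXB7 and HOXB9; after median scaling 7 were called lower. Within HOXB, HOXB2 had 53.6, 55.9 and 52.6 TPM in A375, against 7.96, 7.55 and 6.83 TPM in SK-Hep1 (difference 2.71), whereas HOXB7 had 43.7, 43 and 45 TPM in A375, against 117, 122 and 128 TPM in SK-Hep1 (-1.45). HOXB9 had 8.49, 8.25 and 7.87 TPM in A375, against 63.4, 68.5 and 66.5 TPM in SK-Hep1 (-2.87). Within HOXA, HOXA5 had 21.2 ± 3.86 TPM in A375 against 1.92 ± 0.879 TPM in SK-Hep1 (2.95) and HOXA7 0.42 TPM in A375 against 5.05 TPM in SK-Hep1 (-2.10). HOXD8 and HOXD9 were close to 0 in SK-Hep1: HOXD8 had 7.95 TPM in A375 against 0.0233 TPM in SK-Hep1, and HOXD9 had 9.12 TPM in A375 against 0.04 TPM in SK-Hep1. HOXC10 was high in both lines, with 58.2 TPM in A375 against 47.7 TPM in SK-Hep1 and a difference of 0.28. Neighbouring HOX genes overlap and have antisense transcripts, and the strand setting of the counting is not given in the sources used here.

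The tumour suppressor gene CDKN2A and its neighbour MTAP on chromosome 9 were at or near 0 in SK-Hep1. CDKN2A encodes the cell cycle inhibitor p16 and the p53 activator ARF, and MTAP encodes an enzyme of methionine salvage that is commonly lost along with CDKN2A in tumours. MTAP (ENSG00000099810, hg38 chr9:21802543-21937651, plus strand) had 185, 208 and 200.4 TPM in A375, against 0.02, 0 and 0 TPM in SK-Hep1 (difference 7.62, adjusted p = 3.43e-09). CDKN2A (ENSG00000147889, hg38 chr9:21967753-21995301, minus strand) had 7.14, 3.99 and 5.74 TPM in A375, against 0 TPM in every SK-Hep1 library (adjusted p = 1.74e-05). CDKN2B was listed at 0 in all 6 libraries. Of the 12 listed genes of this neighbourhood 6 passed the filter, 3 of them only through A375, and 5 were called higher and 0 lower by limma (3 and 0 after median scaling), with adjusted p alone giving 6 and 0. Between KLHL9 and ELAVL2, a stretch of 2355 kb, the table has 39 rows of any biotype, of which 8 had a mean of at least 1 TPM in A375 and 0 in SK-Hep1, where the highest value in a library was 0.44 TPM. ELAVL2 itself had 1.91, 1.79 and 2.7 TPM in A375, against 0.19, 0 and 0 TPM in SK-Hep1 (1.55, or 0.80 and not called with siGCDH). It was thus near 0 in SK-Hep1 too, and does not show where the stretch ends on that side. The next genes on the near side were transcribed in both lines: KLHL9 had 29.5, 28.6 and 25.1 TPM in A375, against 12.4, 11 and 13.8 TPM in SK-Hep1, FOCAD had 24.7 TPM in A375 against 11.8 TPM in SK-Hep1 (mean) and MLLT3 21.8 TPM in A375 against 13.8 TPM in SK-Hep1. The differences of KLHL9 (1.11) and FOCAD (1.01) were called, but were 0.93 and 0.83 after median scaling and 0.73 and 0.72 with siGCDH, and that of FOCAD was 0.95 without A375 replicate 1 and 0.96 without SK-Hep1 replicate 1. In the siGCDH wells the means were 208 TPM in A375 against 0.15 TPM in SK-Hep1 for MTAP and 8.98 TPM in A375 against 0 TPM in SK-Hep1 for CDKN2A. RNA alone cannot tell a deleted gene from a silent one, and no DNA was measured in the files used here.

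A stretch of chromosome 13 had the same pattern, and was picked out after its values were seen, in a search for runs of at least 4 neighbouring tested genes that all differed by at least 2 in 1 direction. It ran from MPHOSPH8 to XPO4 (hg38 chr13:19633681-20903048, 1269 kb) and was the longest of the runs found, with 10 tested genes. MPHOSPH8, a subunit of the HUSH complex that silences repeats and other genes, had 38.1, 44.1 and 47.4 TPM in A375, against 0 TPM in every SK-Hep1 library (adjusted p = 4.24e-08). PSPC1, a protein of nuclear paraspeckles, had 72.8, 72.5 and 72 TPM in A375, against 0.06, 0 and 0 TPM in SK-Hep1 (difference 6.17). ZMYM2, a chromatin-bound zinc finger protein, had 56, 60.6 and 55.8 TPM in A375, against 0 TPM in every SK-Hep1 library. The search required a difference of at least 2, so the lack of overlap between the groups for the 10 genes restates the choice. ZMYM5, GJA3, CRYL1, IFT88, IL17D, EEF1AKMT1 and XPO4 completed the run, with means of 3.23 to 18.8 TPM in A375 and at most 0.01 TPM in a library of SK-Hep1. Of 31 rows of any biotype in the stretch, 11 had a mean of at least 1 TPM in A375 and 0 in SK-Hep1. TPTE2, which lies before MPHOSPH8, was at 0 TPM in every siControl library of both lines, and does not show where the stretch begins. Beyond XPO4 transcripts resumed in SK-Hep1: LATS2 had 13.5, 14 and 11.6 TPM in A375, against 22.8, 20.8 and 21.8 TPM in SK-Hep1 (not called, though called lower with siGCDH at -1.25), and SAP18 had 315, 301 and 347 TPM in A375, against 169, 190.2 and 177 TPM in SK-Hep1. In the siGCDH wells of SK-Hep1 no library exceeded 0.11 TPM for any protein-coding gene of the stretch. In the siControl libraries labelled SKBR3, MPHOSPH8 had 21.5 to 26.5 TPM, PSPC1 52.5 to 53.5 TPM and ZMYM2 28.0 to 28.6 TPM.

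**Figure D3:**
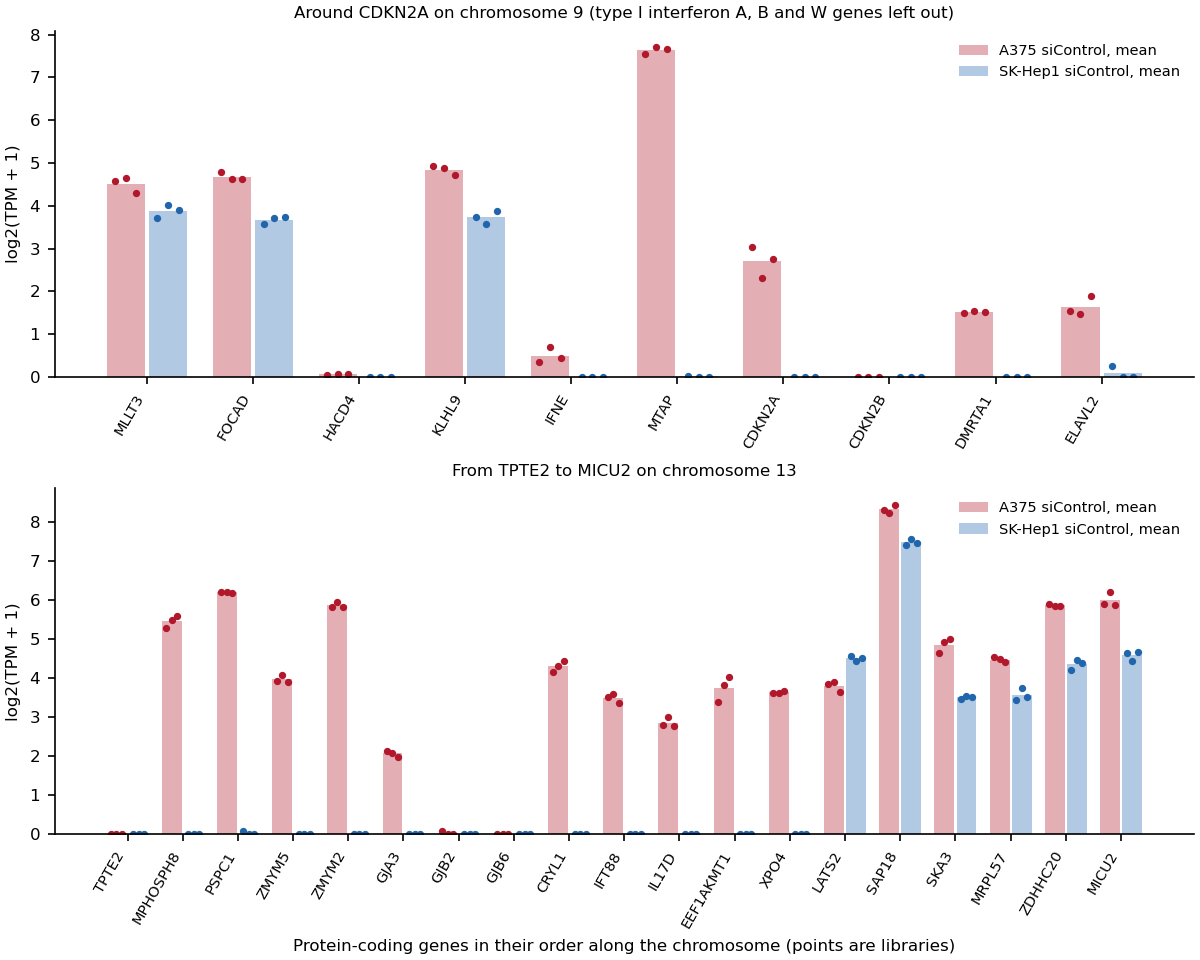
Levels of protein-coding genes in their order along chromosome 9 around CDKN2A (top) and along chromosome 13 (bottom), as log2(TPM + 1), with A375 siControl left and SK-Hep1 siControl right of each pair; bars are means and points are the 3 libraries. MTAP and CDKN2A, and the genes from MPHOSPH8 to XPO4, were at or near 0 in every SK-Hep1 library, while KLHL9 and LATS2 beside them were not.

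Growth factor receptors differed in both directions. Of 49 receptor tyrosine kinases 31 passed the filter, 11 were called higher in A375 and 10 lower (median 0.12, or -0.06 after median scaling, beside 0.21 and 0.04 for all genes). EGFR had 4.37, 4.35 and 4.04 TPM in A375, against 47.1, 48.1 and 52.9 TPM in SK-Hep1 (difference -3.26, adjusted p = 7.17e-08), while its ligand TGFA stood on the A375 side and its ligand EREG on the SK-Hep1 side. EPHA3, an ephrin receptor, had 26, 27.2 and 26.7 TPM in A375, against 1.67, 1.63 and 1.34 TPM in SK-Hep1 (3.44), and the collagen receptor DDR2 24.5, 24 and 21.9 TPM in A375, against 0.45, 0.18 and 0.55 TPM in SK-Hep1 (4.14). NTRK3, a neurotrophin receptor, had 0.26, 0 and 0 TPM in A375, against 9.25, 10.5 and 12.9 TPM in SK-Hep1 (-3.45). IGF1R, the insulin-like growth factor receptor, was called higher (54.4 TPM in A375 against 7.98 TPM in SK-Hep1), and MET, the hepatocyte growth factor receptor, lower (39.9 TPM in A375 against 100.03 TPM in SK-Hep1, difference -1.30, or -0.56 and not called with siGCDH). ERBB2 was not called, with 32.7 ± 1.72 TPM in A375 against 46.4 ± 5.12 TPM in SK-Hep1, but was called lower with siGCDH (-1.51).

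Feedback and output genes of the MAPK pathway, which are induced by active ERK, were higher in A375 for 11 of 22 and lower for 3, with 8 not called (median 1.08), beside 19.8% higher and 13.7% lower over all tested genes. All 22 passed the filter, 2 of them only through A375. DUSP4, an ERK phosphatase, had 98.6, 99.8 and 98 TPM in A375, against 9.87, 9.04 and 10.03 TPM in SK-Hep1 (difference 3.23, adjusted p = 2.93e-08). The pathway inhibitor SPRY2 had 208 ± 13.7 TPM in A375 against 34.6 ± 0.922 TPM in SK-Hep1 (2.55), and its relative SPRY4 had 59.9 ± 1.32 TPM in A375 against 3.94 ± 0.541 TPM in SK-Hep1 (3.63). The ETS factor ETV4 had 121 ± 5.13 TPM in A375 against 14.1 ± 0.819 TPM in SK-Hep1 (3.01). DUSP6, the ERK phosphatase most used as a readout, had 151 TPM in A375 against 30.8 TPM in SK-Hep1. CCND1, cyclin D1, had 273, 279 and 269 TPM in A375, against 119, 121 and 115 TPM in SK-Hep1 (1.20), but with siGCDH its difference was 0.06 and not called. MYC was called lower, with 9.89, 11.4 and 9.99 TPM in A375, against 99.1, 104 and 106 TPM in SK-Hep1 (-3.19, adjusted p = 5.78e-08). FOSL1 and PHLDA1 did not reach 2-fold (-0.45 and -0.23).

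Integrins, the matrix receptors, differed in both directions too, with 6 called higher and 4 lower among 17 of 26 past the filter (median 0.58), where 19.8% and 13.7% of all tested genes were called. ITGB3, the beta chain of the vitronectin receptor that marks invasive melanoma, had 68.5, 71.4 and 72.4 TPM in A375, against 1.49, 1.45 and 1.69 TPM in SK-Hep1 (difference 4.82), and ITGA1 39.1 TPM in A375 against 8.3 TPM in SK-Hep1. The common beta chain ITGB1 had 276, 263 and 287 TPM in A375, against 1035, 1013 and 1120.3 TPM in SK-Hep1 (-1.94), ITGA3, a laminin receptor chain, 146 ± 15 TPM in A375 against 475 ± 14.2 TPM in SK-Hep1 (-1.70) and ITGA4 30.1 TPM in A375 against 89.1 TPM in SK-Hep1. ITGA6 was not called, with 138 ± 1.49 TPM in A375 against 136 ± 5.82 TPM in SK-Hep1. ITGB2 was called higher in A375 with 2.72 TPM in A375 against 0.783 TPM in SK-Hep1, but lower in A375 in the siGCDH wells (2.88 TPM in A375 against 8.33 TPM in SK-Hep1). Its difference of 1.06 with siControl was 0.88 after median scaling and 0.42 with a pseudocount of 5, both short of the size condition. These scales understate the difference of so low a gene.

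NRF2 is the transcription factor that switches on detoxifying and antioxidant genes when its inhibitor KEAP1 is inactive. Its own transcript, NFE2L2, was not called, with 79.4, 76.3 and 77.5 TPM in A375, against 76.1, 81.8 and 81.2 TPM in SK-Hep1 (difference -0.04, adjusted p = 0.513). KEAP1 was called higher in A375, with 79.3, 71.3 and 70.5 TPM in A375, against 31.4, 24 and 26.5 TPM in SK-Hep1 (1.41). In the list of NRF2 and its targets 38 of 39 listed genes passed the filter, 4 of them only through A375 and 0 only through SK-Hep1, and 16 were called higher and 3 lower (median difference 0.79). After median scaling 13 were called higher and 3 lower. NQO1 led the list, and AKR1C2 and AKR1C3, aldo-keto reductases of steroids, were near 0 in SK-Hep1. AKR1C2 had 11.2 TPM in A375 against 0.0467 TPM in SK-Hep1 (mean), and AKR1C3 had 6.64 TPM in A375 against 0 TPM in SK-Hep1. AKR1C copies are near-identical, so their split is uncertain. PIR, an iron-binding nuclear protein, had 98, 99 and 92.5 TPM in A375, against 14, 18.2 and 13.1 TPM in SK-Hep1 (difference 2.61). Ferritin heavy chain, FTH1, had 5967, 5895 and 6034 TPM in A375, against 1853, 1909 and 1857 TPM in SK-Hep1 (1.67), but its difference with siGCDH was 0.35 and not called, and the light chain FTL had 2654 ± 44.9 TPM in A375 against 3435 ± 89.3 TPM in SK-Hep1 (-0.37, or -1.51 and called lower with siGCDH). The subunits of glutamate-cysteine ligase, which makes the precursor of glutathione, were both called higher (GCLC 47.8 TPM in A375 against 18.4 TPM in SK-Hep1, GCLM 36.9 TPM in A375 against 12.6 TPM in SK-Hep1). Thioredoxin reductase TXNRD1 (333 TPM in A375 against 696 TPM in SK-Hep1), GSTM1 (34.4 TPM in A375 against 80.01 TPM in SK-Hep1) and BLVRB (28.1, 27.7 and 31.5 TPM in A375, against 122, 121 and 109 TPM in SK-Hep1, -1.98) were called lower. With siGCDH the calls of TXNRD1 (-0.81) and GSTM1 (-0.65) were lost. TKT, transketolase, was not called, with 916 ± 21.8 TPM in A375 against 924 ± 47.5 TPM in SK-Hep1, but was called lower with siGCDH (-1.29). HMOX1, heme oxygenase, was not called either, with 40.02 TPM in A375 against 41.4 TPM in SK-Hep1, but in the siGCDH wells it had 86.2 TPM in A375 against 4.54 TPM in SK-Hep1 (3.99, called higher).

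The upstream window of NQO1 is shown because no other tested gene differed as much towards A375, with CpG in capitals (chr16:69726561-69726810, minus strand, RefSeq GRCh38.p14).
NQO1: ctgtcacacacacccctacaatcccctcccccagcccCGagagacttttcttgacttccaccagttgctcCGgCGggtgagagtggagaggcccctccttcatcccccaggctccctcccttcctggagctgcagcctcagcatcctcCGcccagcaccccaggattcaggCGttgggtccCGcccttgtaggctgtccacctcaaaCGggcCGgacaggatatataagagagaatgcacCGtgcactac
It holds 9 CpG, and 13.7% of the 10853 windows hold fewer. The antioxidant response element core TGACNNNGC was searched on both strands of the 250 bases. It was in 12.2% of the 10853 windows and in 7 of 28 windows of the NRF2 list past the filter. Of the 16 genes of that list called higher, 12 had a window, and 1 of these windows held the core, that of GCLM. The letters do not occur in this window of NQO1, whose known element lies farther upstream.

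Genes of lysine and tryptophan breakdown, the pathway of GCDH, differed in both directions. Of 25 listed, 21 passed the filter, 4 were called higher and 2 lower (median 0.16), beside 19.8% higher and 13.7% lower over all tested genes, and after median scaling 2 were called higher and 2 lower (median -0.02). The first steps of lysine breakdown and DHTKD1, the enzyme just above GCDH, were not called: AASS had 13.2 TPM in A375 against 22.2 TPM in SK-Hep1, ALDH7A1 113 TPM in A375 against 116 TPM in SK-Hep1 and DHTKD1 19.6 ± 1.48 TPM in A375 against 15.7 ± 3.66 TPM in SK-Hep1 (difference 0.32, adjusted p = 0.103). With siGCDH, AASS (-1.49) and ALDH7A1 (-1.99) were called lower. ETFB, a subunit of the flavoprotein that takes electrons from GCDH, had 223, 233 and 245 TPM in A375, against 67.7, 61.4 and 61.7 TPM in SK-Hep1 (1.86), but 0.63 with siGCDH and no call. Its partner ETFA had 224 ± 9.995 TPM in A375 against 174 ± 8.21 TPM in SK-Hep1 (0.37, but -0.43 with siGCDH, neither called). The tryptophan branch differed most. KYNU, kynureninase, had 146, 151 and 140.3 TPM in A375, against 12.9, 14.7 and 11.5 TPM in SK-Hep1 (3.39, adjusted p = 1.19e-07), whereas HAAO, the dioxygenase that follows it, had 0 TPM in every A375 library, against 10.2, 10.6 and 12.8 TPM in SK-Hep1. KMO, the monooxygenase before it, had 0.57, 1.07 and 0.24 TPM in A375, against 3.58, 3.44 and 3.57 TPM in SK-Hep1 (-1.51, or -0.88 and not called with siGCDH). AADAT, the aminotransferase shared by both routes, had 20.2 ± 2.32 TPM in A375 against 8.44 ± 1.45 TPM in SK-Hep1 (1.17, or 0.99 after median scaling). The entry enzymes were below the filter, with 0.103 TPM in A375 against 1.8 TPM in SK-Hep1 for TDO2 and 0.0967 TPM in A375 against 0.0933 TPM in SK-Hep1 for IDO1.

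In the ATF4 and amino acid list, the 8 genes called higher included serine synthesis enzymes and amino acid carriers. Of 34 listed, 33 passed the filter, and 8 were called higher and 4 lower (median 0.29), beside 19.8% higher and 13.7% lower over all tested genes. After median scaling 6 were called higher and 5 lower. PSAT1, the aminotransferase of serine synthesis, had 141, 142 and 138 TPM in A375, against 0.09, 0.09 and 0 TPM in SK-Hep1 (difference 7.06, adjusted p = 4.57e-09). The enzyme before it, PHGDH, had 129.8 TPM in A375 against 58.7 TPM in SK-Hep1, and the next, PSPH, had 35.5 TPM in A375 against 17.2 TPM in SK-Hep1. The calls of these neighbours were near 2-fold: PHGDH differed by 1.13 (0.95 after median scaling) and PSPH by 1.01 (0.83 after median scaling, 0.99 without A375 replicate 2, 0.93 without SK-Hep1 replicate 2 and 0.99 without SK-Hep1 replicate 3). SLC7A5 and SLC3A2 form a carrier of leucine and tryptophan. SLC7A5 had 429, 423 and 413 TPM in A375, against 56.4, 60.01 and 58.8 TPM in SK-Hep1 (2.83). SLC3A2 had 371, 390 and 374 TPM in A375, against 102, 91.2 and 90.7 TPM in SK-Hep1 (1.99). SLC1A4, a carrier of serine and alanine, had 45.3 ± 3.42 TPM in A375 against 10.4 ± 1.58 TPM in SK-Hep1 (2.02). GDF15, a stress-induced hormone, had 5.47, 4.68 and 4.38 TPM in A375, against 56.9, 59.3 and 57.9 TPM in SK-Hep1 (-3.34), and the proline enzyme PYCR1 46.8 TPM in A375 against 121 TPM in SK-Hep1 (-1.35, but 0.41 and not called with siGCDH). ATF4 itself had 315 ± 0.98 TPM in A375 against 372 ± 4.88 TPM in SK-Hep1 (-0.24, but 0.64 with siGCDH, neither called). Its stress partner DDIT3 had 21.7 TPM in A375 against 44.2 TPM in SK-Hep1, a difference of -0.9999 at the edge of a call, which was -1.04 without A375 replicate 2, -1.07 without A375 replicate 3, -1.06 without SK-Hep1 replicate 2, -1.01 without SK-Hep1 replicate 3 and -1.18 after median scaling.

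PSAT1 and PRDX2 were nearly absent from SK-Hep1, and their upstream windows are given for comparison with those of MAGEA3 and NQO1, with CpG in capitals (RefSeq GRCh38.p14, chr9:78296875-78297124, plus strand for PSAT1 and chr19:12801801-12802050, minus strand for PRDX2).
PSAT1: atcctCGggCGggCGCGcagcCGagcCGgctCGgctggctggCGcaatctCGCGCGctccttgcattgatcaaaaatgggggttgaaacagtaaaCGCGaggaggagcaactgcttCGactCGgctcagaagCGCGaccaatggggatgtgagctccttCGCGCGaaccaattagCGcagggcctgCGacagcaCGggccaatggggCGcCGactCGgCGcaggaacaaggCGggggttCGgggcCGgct
PRDX2: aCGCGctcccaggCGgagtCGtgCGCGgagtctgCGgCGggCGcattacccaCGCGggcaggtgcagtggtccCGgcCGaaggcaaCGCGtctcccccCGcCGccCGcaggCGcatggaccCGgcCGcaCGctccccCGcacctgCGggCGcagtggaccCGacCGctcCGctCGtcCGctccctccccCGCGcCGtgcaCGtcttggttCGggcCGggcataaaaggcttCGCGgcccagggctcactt
The windows hold 30 and 38 CpG, above the median of 21 over all windows, whereas those of MAGEA3 and NQO1 hold 15 and 9. PRDX2 lies on chromosome 19 (hg38 chr19:12796820-12801859) and PSAT1 on chromosome 9 (hg38 chr9:78297143-78330093).

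Of 37 cell cycle genes past the filter 12 were called higher in A375 and 0 lower by limma at adjusted p under 0.05 and 2-fold (median 0.68, or 0.50 after median scaling, beside 0.21 and 0.04 for all genes, of which 19.8% were called higher and 13.7% lower). In the siGCDH wells the median of these 37 was 0.09, beside 0.06 for all genes. By adjusted p alone 30 were higher and 3 lower, namely MCM5, BIRC5 and CDKN1B, with siControl. CDC25A, a phosphatase that drives entry into S phase, had 29.3, 32.6 and 32.5 TPM in A375, against 3.51, 2.32 and 3.58 TPM in SK-Hep1 (difference 2.99). PCNA, the replication clamp, had 312, 298 and 290.01 TPM in A375, against 109.8, 99.8 and 104 TPM in SK-Hep1 (1.51), and TYMS, thymidylate synthase, 282 TPM in A375 against 107 TPM in SK-Hep1. CDK6, a kinase that acts on RB1, had 25.5 ± 0.186 TPM in A375 against 8.01 ± 0.104 TPM in SK-Hep1, and cyclin E2 (CCNE2) had 22.5 ± 1.87 TPM in A375 against 6.85 ± 0.704 TPM in SK-Hep1. PLK1, a mitotic kinase, had 119.7 ± 9.28 TPM in A375 against 41.7 ± 4.9 TPM in SK-Hep1. The proliferation marker MKI67 was not called (44.2 TPM in A375 against 32.4 TPM in SK-Hep1), nor was the topoisomerase TOP2A (111 TPM in A375 against 115 TPM in SK-Hep1), which was called lower with siGCDH (-1.26). CCNB1 and CDK4, a cyclin of mitosis and a kinase that acts on RB1, were not called and differed by 0.50 and 0.51 with siControl but by -0.34 and -0.81 with siGCDH. RB1, which p16 acts through, was called higher (52.3 TPM in A375 against 19.1 TPM in SK-Hep1). The calls of RB1 (0.80) and TYMS (0.90) were lost with siGCDH. The sources used here do not give the density or growth rate of the wells.

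Of 26 targets of p53 past the filter 3 were called higher and 3 lower (median 0.29), beside 19.8% higher and 13.7% lower over all tested genes. PMAIP1, which encodes the apoptosis inducer NOXA, had 21.6, 20.7 and 20.8 TPM in A375, against 3.62, 6.17 and 4.52 TPM in SK-Hep1 (difference 1.96) and BTG2 15.8 ± 0.32 TPM in A375 against 4.92 ± 0.214 TPM in SK-Hep1 (1.51), whereas PLK2, a stress-induced kinase, had 91.3, 96.7 and 88.8 TPM in A375, against 770.5, 783 and 821 TPM in SK-Hep1 (-3.09). CDKN1A (p21) was not called (156 TPM in A375 against 86.5 TPM in SK-Hep1; 1.09 and called with siGCDH), nor was MDM2 (72.3 TPM in A375 against 61 TPM in SK-Hep1).

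Of 35 genes of the interferon response and of antigen presentation past the filter, 14 were called lower in A375 and 4 higher (median -0.53; 17 and 4 after median scaling). BST2, tetherin, had 1.7, 1.17 and 1.46 TPM in A375, against 71.5, 70.3 and 83.7 TPM in SK-Hep1 (difference -4.96, adjusted p = 6.95e-08), IFIT2 5.65, 5.45 and 5.42 TPM in A375, against 43.8, 39.6 and 45.2 TPM in SK-Hep1 (-2.75) and the factor IRF1 14.2 ± 1.5 TPM in A375 against 71.4 ± 3.45 TPM in SK-Hep1 (-2.25). HLA-E, a ligand of natural killer cell receptors, had 71.6, 68.8 and 61.6 TPM in A375, against 324, 319.6 and 325 TPM in SK-Hep1 (-2.25), while B2M, the light chain of class I molecules, differed by -0.26. MX2, an inhibitor of retroviruses, was called higher, with 71.7, 69.4 and 66 TPM in A375, against 0.08, 0.24 and 0.05 TPM in SK-Hep1 (5.96), while its relative MX1 had 5.58 TPM in A375 against 2.3 TPM in SK-Hep1. The difference of MX1 was 0.996, just short of a call, but it was 1.07 without A375 replicate 1, 1.06 without A375 replicate 3, 1.13 without SK-Hep1 replicate 3 and 1.16 with siGCDH. The class II chaperone CD74 had 2036, 2001 and 2032 TPM in A375, against 609.5, 667 and 645 TPM in SK-Hep1 (1.66), and HLA-DRA had 495 ± 6.44 TPM in A375 against 308 ± 3.55 TPM in SK-Hep1 (0.68, or 2.64 and called with siGCDH). Reads of HLA genes depend on the alleles of a line, so that HLA levels between lines are uncertain.

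Cytokines and chemokines gave 14 called lower and 6 higher among 30 of 37 past the filter (median -0.89). The inflammasome cytokine IL1B had 3.87, 3.54 and 4.06 TPM in A375, against 166, 162 and 167 TPM in SK-Hep1 (difference -5.11). The other such cytokine, IL18, had 1.29, 0.72 and 0.12 TPM in A375, against 162, 162 and 159 TPM in SK-Hep1 (-6.63). CXCL6, a neutrophil chemokine, had 0 TPM in every A375 library, against 35.6, 34.7 and 37.1 TPM in SK-Hep1, and IL6 2 TPM in A375 against 34.8 TPM in SK-Hep1 (mean). TGFB2 was lower in A375, with 1.52 ± 0.468 TPM in A375 against 46.7 ± 6.4 TPM in SK-Hep1, and so was TGFB1, with 62.8 ± 0.468 TPM in A375 against 161 ± 4.08 TPM in SK-Hep1. IL24, a cytokine first found in differentiating melanoma cells, stood far above SK-Hep1, with 411, 396 and 408 TPM in A375, against 5.62, 7.59 and 5.73 TPM in SK-Hep1 (5.81, adjusted p = 2.82e-08), and INHBA, the activin A chain, had 90.2 TPM in A375 against 9.25 TPM in SK-Hep1. CXCL8 was not called, with 128 TPM in A375 against 67 TPM in SK-Hep1 (0.93, or 1.02 without SK-Hep1 replicate 3 and 1.25 with siGCDH).

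Both plasminogen activators were lower in A375, and their inhibitors differed in both directions. Of 22 listed genes 19 passed the filter, 4 were called higher and 7 lower (median -0.85, or 0.13 with siGCDH; 4 and 10 after median scaling). Beside PLAU, the tissue activator PLAT had 59.4 TPM in A375 against 446 TPM in SK-Hep1 (mean), the plasminogen receptor subunit ANXA2 400.4, 397 and 390.2 TPM in A375, against 3068, 2921 and 2913 TPM in SK-Hep1 (difference -2.90) and the coagulation inhibitor TFPI 3.19, 2.08 and 2.46 TPM in A375, against 398, 399 and 417 TPM in SK-Hep1 (-6.84). Among the inhibitors SERPINB2 (PAI-2) was called lower too, with 0.297 TPM in A375 against 36.8 TPM in SK-Hep1. SERPINE2, protease nexin 1, was called higher, with 2846, 2864 and 2846 TPM in A375, against 146, 139.9 and 140.4 TPM in SK-Hep1 (4.32, adjusted p = 9.43e-10). Another serpin of the list, which is not counted among these inhibitors, was called higher as well. This was SERPINA3, alpha-1-antichymotrypsin, with 254, 252 and 251 TPM in A375, against 0.54, 0.62 and 0.28 TPM in SK-Hep1 (7.43). S100A10, the partner of ANXA2, was not called (979 ± 11.1 TPM in A375 against 951 ± 26.9 TPM in SK-Hep1).

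The genes of mitochondrial DNA took a smaller share of the RNA in A375. Its 13 protein-coding genes made up 1.76, 1.78 and 1.89% of TPM in the A375 libraries (mean 1.81 ± 0.0685%, SD, n = 3), against 5.13, 5.62 and 5.81% in the SK-Hep1 libraries (mean 5.52 ± 0.348%, SD, n = 3). The difference of -3.71 percentage points gave p = 0.1 in an exact two-sided permutation test, the smallest that 3 against 3 libraries allow. In the siGCDH wells the shares were 1.67% in A375 and 5.44% in SK-Hep1. Of the 13 genes 11 were called lower in A375 and 0 higher (median -1.69, and -1.87 after median scaling). MT-CO2, a subunit of cytochrome c oxidase, had 2055, 2047 and 2123 TPM in A375, against 9758, 10964 and 11002 TPM in SK-Hep1 (difference -2.35), whereas MT-ND2 had 2466 TPM in A375 against 2944 TPM in SK-Hep1 and was not called. Of 34 genes for nuclear-encoded subunits of the same complexes, all past the filter in both lines, 4 were called higher and 0 lower in A375 (median 0.22, next to 0.21 for all genes, and -0.11 with siGCDH). SDHC, a membrane anchor of succinate dehydrogenase, had 373 ± 26.2 TPM in A375 against 129 ± 9.27 TPM in SK-Hep1 (1.53). Other calls were at the 2-fold boundary. COX7A2 (1.02) became 0.99 without A375 replicate 2, 0.998 without SK-Hep1 replicate 2 and 0.98 without SK-Hep1 replicate 3. NDUFB10 (1.005) became 0.97 without A375 replicate 3 and 0.98 without SK-Hep1 replicate 1. They were at 0.84 and 0.83 after median scaling. With siGCDH none of SDHC (0.54), COX7A2 (0.24) and NDUFB10 (0.44) was called. COX4I1 and ATP5F1B differed by 0.83 and 0.10, and by 0.22 and -0.28 with siGCDH, without a call.

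Glycolytic enzymes were among the most abundant transcripts of both lines. Of 31 genes of glycolysis and hypoxia 30 passed the filter, and 4 were called higher and 6 lower (median 0.18), beside 19.8% and 13.7% of all tested genes. After median scaling 3 were called higher and 8 lower, with a median of -0.00. GAPDH had 10948, 10773 and 10836 TPM in A375, against 8320.2, 8556 and 8354 TPM in SK-Hep1 (difference 0.37), ENO1 2719 ± 55.3 TPM in A375 against 2111 ± 62.3 TPM in SK-Hep1 (0.37, but 1.53 and called with siGCDH) and PKM 2191 ± 32.1 TPM in A375 against 1993 ± 52.5 TPM in SK-Hep1 (0.14). The lactate exporter SLC16A3 had 15.6, 15.2 and 14.3 TPM in A375, against 242, 240.1 and 226 TPM in SK-Hep1 (-3.88, adjusted p = 8.63e-09), lactate dehydrogenase LDHA 1308 TPM in A375 against 2839 TPM in SK-Hep1 (-1.12, or -0.98 after quantile normalization and -0.30 with siGCDH), and the neural aldolase ALDOC 48, 48.5 and 41 TPM in A375, against 0.96, 1.36 and 0.73 TPM in SK-Hep1 (4.55). The hypoxia factor EPAS1 had 1.51 ± 0.333 TPM in A375 against 25.9 ± 2.04 TPM in SK-Hep1 (-3.43) and HIF1A was not called (162 TPM in A375 against 152 TPM in SK-Hep1). ADM, adrenomedullin, had 14.3 ± 3.46 TPM in A375 against 92.2 ± 4.27 TPM in SK-Hep1 (-2.63).

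Oncofetal genes gave 2 calls each way among 8 of 14 past the filter. PEG10, an imprinted gene derived from a retrotransposon, had 1.61, 2.4 and 1.34 TPM in A375, against 129.8, 131 and 141 TPM in SK-Hep1 (difference -5.62), and LIN28B, which blocks let-7 maturation, had 3.94, 3.38 and 3.44 TPM in A375, against 0 TPM in every SK-Hep1 library. HMGA2, a let-7 target, was not called with siControl, with 121, 127 and 119.9 TPM in A375, against 119.8, 135 and 138 TPM in SK-Hep1 (-0.09, adjusted p = 0.225), but had 382 TPM in A375 against 46.9 TPM in SK-Hep1 with siGCDH (3.001, called). Histone genes whose messages lack poly(A) tails were scarce in both lines, at 0.0115 ± 0.000447% of TPM in A375 and 0.0141 ± 0.00125% in SK-Hep1 (SD, n = 3 each; exact two-sided permutation p = 0.1, the smallest possible), and of the 5 of 17 past the filter 1 was called in each direction. With siGCDH the shares were 0.0132% in A375 and 0.00781% in SK-Hep1. With siControl H2BC12 alone held a mean of 57.2 of the 111.7 to 120.2 TPM summed over these genes in A375. In SK-Hep1 it held 84.4 of 126.7 to 150.9 TPM. Its siGCDH means were 53.9 TPM in A375 and 12.1 TPM in SK-Hep1, so this gene turned along with the shares.

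**Figure D4:**
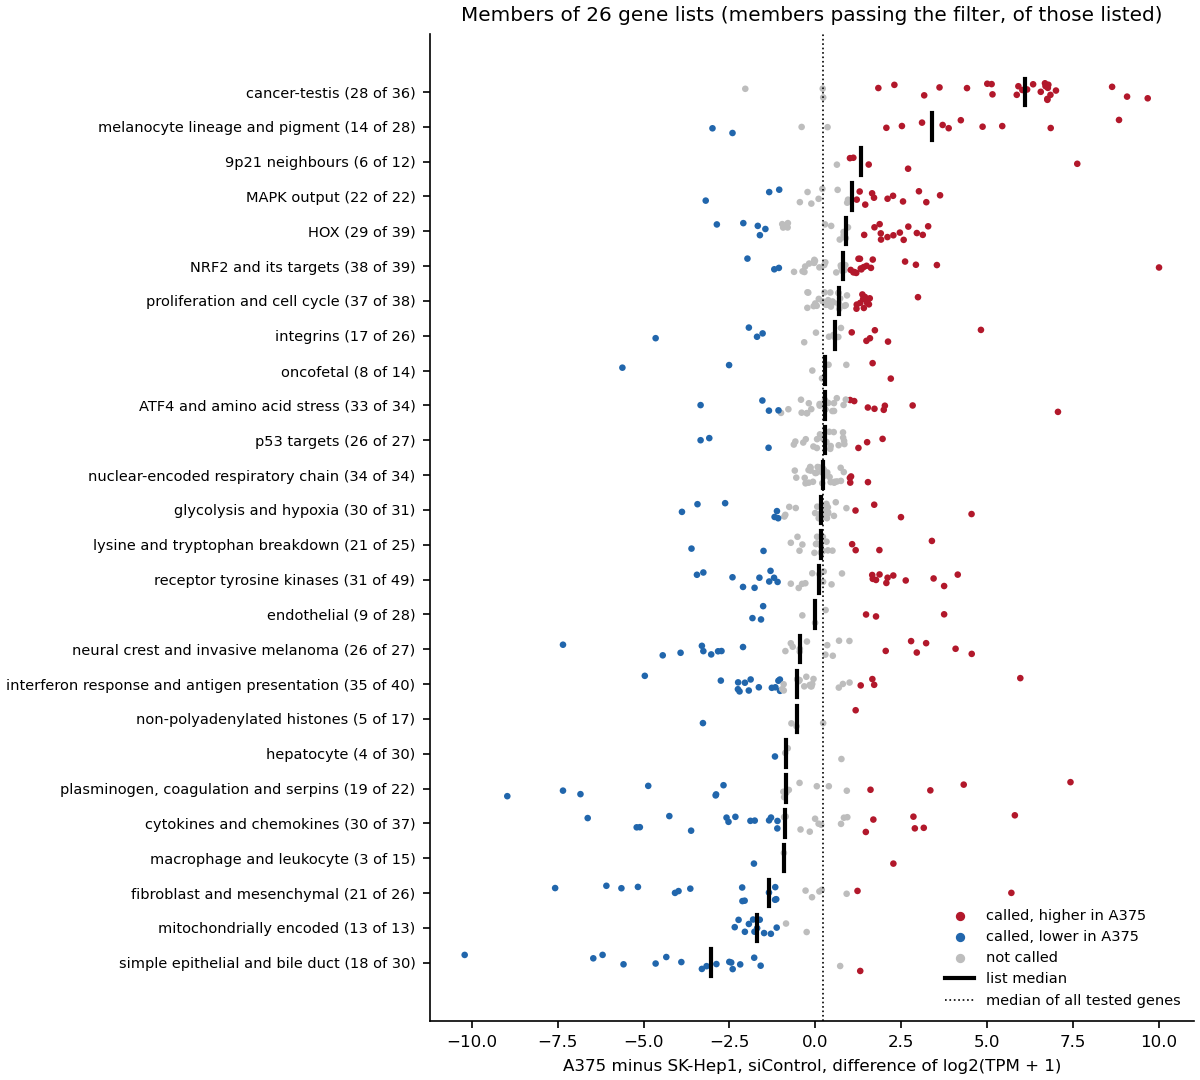
Difference A375 minus SK-Hep1 of every list member that passed the filter (points, on the scale of log2(TPM + 1), coloured by call), for 26 gene lists ordered by their median (black bars); the dotted line is the median of all tested genes, 0.21. Cancer-testis (6.09) and melanocyte genes (3.40) have the highest medians and simple epithelial genes (-3.02) the lowest; genes with 0 TPM in a line are placed by their log2(TPM + 1) and their distance is no fold.

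Called genes were spread unevenly over the chromosomes. Over all 12646 tested protein-coding genes with a position, 19.1% were called higher and 13.8% lower. On chromosome 13 these shares were 40.1% and 6.45% of 217 genes (median difference 0.81), on chromosome 9 37.8% and 7.04% of 497 (0.74), and on chromosome 16 30.5% and 7.85% of 586 (0.63). On chromosome 22 the order turned, with 5% called higher and 21.3% lower of 300 genes (-0.29), and likewise on chromosome 6 (11.9% and 22.3% of 656, -0.24) and chromosome 17 (8.07% and 20.1% of 756, -0.17). In the siGCDH wells, with an overall median of 0.05 over protein-coding genes, the medians were 0.62 on chromosome 13, 0.55 on chromosome 9, 0.52 on chromosome 16, -0.46 on chromosome 22 and -0.37 on chromosome 6. Neighbouring genes are not independent, and no test was made of these shares.

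**Figure D5:**
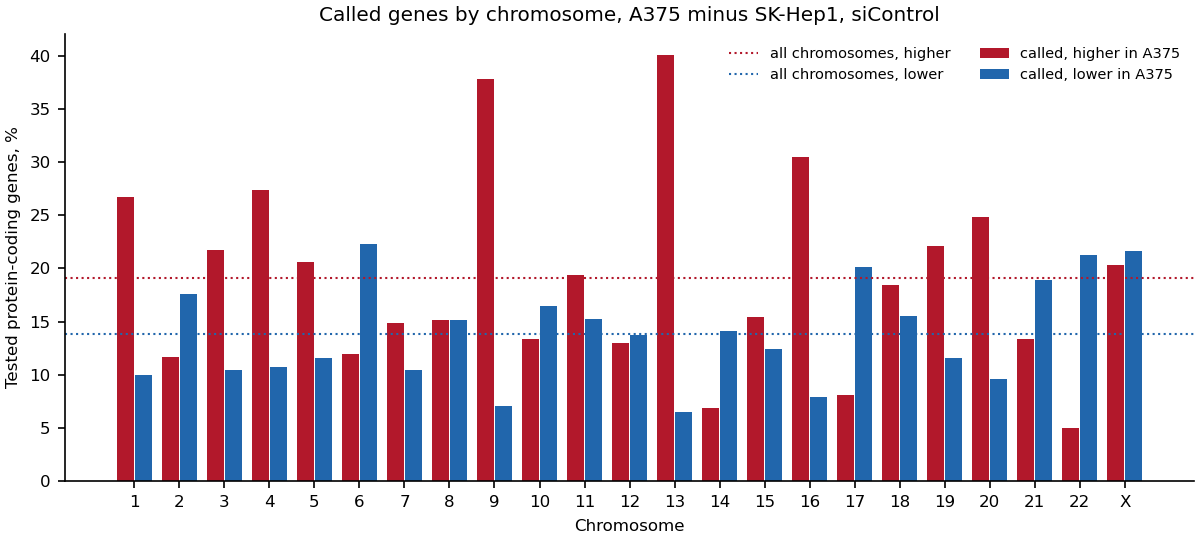
Share of tested protein-coding genes on each chromosome that were called higher (left bar) or lower (right bar) in A375 siControl against SK-Hep1 siControl; dotted lines are the shares over all chromosomes, 19.1% and 13.8%. Chromosomes 13, 9 and 16 have the highest shares called higher (40.1, 37.8 and 30.5%) and chromosome 22 the lowest (5%).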

How the data were processed

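Poly(A) RNA of A375 (batch 2) and SK-Hep1 cells had been sequenced single-end with a directional kit, per the labels. The authors deposited TPM values per gene (a length-corrected share of all transcripts); per the submitters' processing notes reads were trimmed with cutadapt 2.3, aligned to hg38 with STAR 2.7.0d and quantified with RSEM 1.3.1, which divides reads among near-identical copies. The sources used here do not name the annotation release or the strand setting. Each library has the same total, so depth is unknown and no counting interval can be given. Positions came from GENCODE 29 (56996 of 60504 identifiers matched) and symbols from a table of current names (56558 matched).

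Log2(TPM + 1) values of the 15203 genes whose mean over the 6 libraries was 1 TPM or more were compared with limma 3.58.1 (empirical Bayes with trend, two-sided, Benjamini-Hochberg over all 15203), separately for siControl and siGCDH. A gene was called at adjusted p under 0.05 and a log2 difference of at least 1. Shares of TPM were compared by exact permutation tests. Scripts were tested on simulated data. The members and the 26 gene lists were chosen with earlier results of these data known. Genes were named by a rule (203 genes): a fixed panel, the 12 largest called differences each way with at least 5 TPM in the higher line and no overlap (symbols of non-coding genes and pseudogenes set aside), 5 called members with the largest difference and 3 with the highest level per list, and 4 non-coding genes each way. Some genes that this rule takes are not reported here. Another 70 genes, among them those of the stretch from MPHOSPH8 to XPO4 and its neighbours, were named after their values were seen. Of all these genes 257 were tested. Promoter windows of 250 bases came from RefSeq (GRCh38.p14). Alternatives were median scaling, quantile normalization, pseudocounts of 0.1 and 5, no filter and a filter at 5 TPM, robust and untrended variances, joint fits of 12 and 24 libraries, a replicate block, adjusted p alone, the siGCDH libraries, and leaving out each library. Same-numbered wells did not deviate together: correlations of their deviations were -0.045, -0.027 and -0.007, so the numbers were not taken as pairs. A375 batch 1, made with a 3' kit, was not used.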

Additional observations from a re-analysis of the deposited data

Results flagged for a closer look

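The difference between the lines was called in opposite directions with siControl and with siGCDH for 11 genes, and for each the change of the difference (siGCDH minus siControl, on the log2(TPM + 1) scale) passed a limma interaction test over all tested genes (adjusted p at most 6.9e-06). These genes were chosen by opposite calls in the same libraries, so the interaction test restates the choice. Values are means of 3 libraries, and the cause was not tested. TRPV2, a cation channel, had 24.3 TPM in A375 against 7.96 TPM in SK-Hep1 with siControl, and 14.4 TPM in A375 against 77.3 TPM in SK-Hep1 with siGCDH, a change of -3.85. DEPDC1, a gene of dividing cells, had 42.8 TPM in A375 against 17.8 TPM in SK-Hep1 with siControl, and 11.8 TPM in A375 against 37.1 TPM in SK-Hep1 with siGCDH, a change of -2.81. SLC25A13, the mitochondrial aspartate-glutamate carrier citrin, had 43.6 TPM in A375 against 16.1 TPM in SK-Hep1 with siControl, and 12.7 TPM in A375 against 30.4 TPM in SK-Hep1 with siGCDH, a change of -2.59. CDKN1C, the cell cycle inhibitor p57, had 26.9 TPM in A375 against 9.21 TPM in SK-Hep1 with siControl, and 6.69 TPM in A375 against 15.2 TPM in SK-Hep1 with siGCDH, a change of -2.53. ITGB2, the beta chain of leukocyte integrins, had 2.72 TPM in A375 against 0.783 TPM in SK-Hep1 with siControl, and 2.88 TPM in A375 against 8.33 TPM in SK-Hep1 with siGCDH, a change of -2.34. These 5 genes were called higher in A375 with siControl and lower with siGCDH.

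The other 6 were called lower in A375 with siControl and higher with siGCDH. The long non-coding RNA LINC03061 had 5.62 TPM in A375 against 18.9 TPM in SK-Hep1 with siControl, and 22.9 TPM in A375 against 7.01 TPM in SK-Hep1 with siGCDH, a change of 3.16. SYNGR2, a vesicle protein, had 54.4 TPM in A375 against 139.6 TPM in SK-Hep1 with siControl, and 70.8 TPM in A375 against 22 TPM in SK-Hep1 with siGCDH, a change of 2.99. PRDM1, a repressor known from plasma cells, had 1.63 TPM in A375 against 8.92 TPM in SK-Hep1 with siControl, and 4.29 TPM in A375 against 1.58 TPM in SK-Hep1 with siGCDH, a change of 2.93. AGAP2-AS1, an antisense RNA, had 20.2 TPM in A375 against 48.1 TPM in SK-Hep1 with siControl, and 18.8 TPM in A375 against 8.56 TPM in SK-Hep1 with siGCDH, a change of 2.26, and its reads cannot be told from those of its partner where the strand was not used. The orphan receptor GPR176 had 25 TPM in A375 against 58.5 TPM in SK-Hep1 with siControl, and 30.2 TPM in A375 against 14.2 TPM in SK-Hep1 with siGCDH, a change of 2.23. ANO6, a lipid scramblase, had 28.3 TPM in A375 against 58.8 TPM in SK-Hep1 with siControl, and 23.1 TPM in A375 against 10.4 TPM in SK-Hep1 with siGCDH, a change of 2.12. Having been chosen for opposite calls, these genes do not show how often the lines differ in their response to the siRNA.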

How the results depend on the processing

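Counts of called genes stayed within 1.5 times of 3007 higher and 2089 lower with siControl (3045 and 2792 with siGCDH) under every alternative except a pseudocount of 5 and adjusted p alone. A pseudocount of 5 gave 1714 higher and 1288 lower with siControl, and 1935 and 1784 with siGCDH. Adjusted p alone gave 6954 and 4448 with siControl, and 6114 and 5450 with siGCDH. Median scaling gave 2384 and 2503 with siControl, and quantile normalization 2404 and 2531. Leaving out each library gave 2996 to 3055 higher and 2089 to 2123 lower with siControl, and 3008 to 3117 higher and 2757 to 2856 lower with siGCDH; the difference in mitochondrially encoded share ranged from -3.904 to -3.566 percentage points and that in histone share from -0.003245 to -0.002031 percentage points, and with the siGCDH libraries the histone share difference reversed to 0.005348. The replicate block, with wells paired by number only, gave 3028 and 2115 with siControl and 3050 and 2789 with siGCDH, and changed no call among the 257 tested genes. Of those 257, 199 were called. Median scaling took the call from 11 and gave it to 3, quantile normalization 13 and 3, a pseudocount of 5 took it from 23, and the siGCDH libraries took it from 21 and gave it to 17 with the sign kept. Among genes called in either set, the sign also reversed with the siGCDH libraries for H2BC12 (2.09), HMGA2 (3.001), HMOX1 (3.99), ITGB2 (-1.28) and PYCR1 (0.41). Of these H2BC12, HMGA2 and HMOX1 gained the call, PYCR1 lost it and ITGB2 was called both times. Some genes called in neither set changed sign too, such as ATF4 (-0.24 with siControl and 0.64 with siGCDH) and AXL (-0.71 and 0.23). The causes were not tested. Limits of these data are 1 line per side, wells as replicates, and a batch label that cannot be told apart from the line; depth is unknown, so precision at low TPM rests on the spread between wells.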

Other observations

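Long non-coding RNAs held some of the widest gaps between the lines. LINC01029 had 161, 151 and 161 TPM in A375, against 0.42, 0 and 0.39 TPM in SK-Hep1 (difference 6.98), LINC01419 had 62.3 TPM in A375 against 0 TPM in SK-Hep1 (mean), LINC00623 43.7 TPM in A375 against 0 TPM in SK-Hep1 and CCDC144NL-AS1 69.5 TPM in A375 against 0 TPM in SK-Hep1. On the SK-Hep1 side were LINC02154, with 0.18, 0 and 0.15 TPM in A375, against 430.1, 425 and 431 TPM in SK-Hep1 (difference -8.60), PKD1L1-AS1 with 0 TPM in A375 against 95.8 TPM in SK-Hep1, LINC01615 with 0.877 TPM in A375 against 119 TPM in SK-Hep1 and MIR503HG, the host transcript of a microRNA cluster, with 2.52 TPM in A375 against 127 TPM in SK-Hep1. Antisense transcripts share reads with their partners where the strand was not used.

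The search for runs of neighbouring genes, made after the values were seen, gave 14 runs of at least 4 tested protein-coding genes that differed by at least 2 in 1 direction, and 13 of them were higher in A375. Beside the stretch of chromosome 13 and 4 X-linked runs of cancer-testis genes, 4 runs consisted of zinc finger (ZNF) genes of chromosome 19, whose products bind DNA and in many cases silence retroelements. ZNF93, known to bind LINE-1 elements, had 5.16 TPM in A375 against 0.0167 TPM in SK-Hep1 (mean), and ZNF90 had 6.11 TPM in A375 against 0 TPM in SK-Hep1. ZNF43 had 9.61 TPM in A375 against 0 TPM in SK-Hep1, ZNF83 9.67 TPM in A375 against 0 TPM in SK-Hep1 and ZNF677 5.21 TPM in A375 against 0 TPM in SK-Hep1. Of 218 ZNF genes of chromosome 19 past the filter, 55 of them only through A375 and 6 only through SK-Hep1, 28.4% were called higher and 4.59% lower (median difference 0.27). Of 225 ZNF genes of other chromosomes, 14 of them past the filter only through A375 and 10 only through SK-Hep1, 12.9% were called higher and 9.33% lower (median 0.21). Of the other 717 protein-coding genes of chromosome 19, 33 of them only through A375 and 45 only through SK-Hep1, 20.2% and 13.7% were called (median 0.28). Genes past the filter only through A375 had to be higher there, so the 28.4% restates the filter in part. These shares were not tested.

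The class II genes HLA-DQA1, HLA-DQB1, HLA-DQA2 and HLA-DQB2 formed another run. HLA-DQA1 had 33.2, 31.4 and 34.2 TPM in A375, against 0.72, 2.03 and 1.21 TPM in SK-Hep1 (difference 3.91), and HLA-DQB1 had 29.6, 28.3 and 23.9 TPM in A375, against 1.7, 1.97 and 1.2 TPM in SK-Hep1 (3.44), with the reservation on HLA alleles given above. The basement membrane collagens COL4A1 and COL4A2, which share a promoter on chromosome 13, lay in a run with IRS2 and RAB20: COL4A1 had 63.5 TPM in A375 against 10.4 TPM in SK-Hep1 (mean) and COL4A2 151 TPM in A375 against 32 TPM in SK-Hep1. The run lower in A375 was on chromosome 22 (RIBC2, FBLN1, ATXN10 and WNT7B). There ATXN10 had 145, 151 and 153 TPM in A375, against 782, 769 and 753 TPM in SK-Hep1 (-2.35), and FBLN1, the matrix protein fibulin 1, had 2.82 TPM in A375 against 17 TPM in SK-Hep1. The 4 PCDHA genes of a further run share exons, so their levels are uncertain.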
